A study of Mus musculus with 4 samples.

Results

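The genes described here encode transcription factors, cytokines and receptors that mark group 1 innate lymphoid cells (ILC1s), NK cells and group 3 innate lymphoid cells (ILC3s). Their RNA was measured here in group 2 innate lymphoid cells (ILC2s) from lung. The genes were chosen by name as Tbx21, Eomes, Ifng, Il17a, Il17f, Il22, Il12rb2, Il23r and Ncr1. Of these 9 genes, 8 had a row among the 22554 genes of the table, and Il17a is not analysed here. Lung ILC2s of BALB/c mice (BALB/cByJ in the methods of the study) aged 6 weeks were sorted, and both groups were kept in IL-2, IL-7 and IL-33. The labels give the culture as overnight and the study's text as a day. One group received vehicle (Control in the labels) and the other Compound 5D, a small molecule that blocks Orai calcium channels, with 2 libraries in each group. The cells were sorted as lineage-negative, CD45+, ST2+ and CD127+, and the antibody mix that removed other lineages included CD335, the product of Ncr1. The study picked a dose of 5D for cultured ILC2s by titration, but does not state the dose for the cultures used for RNA. Whether the 2 libraries of a group came from separate cultures or animals is not given in the sources used here. The p-values therefore measure the spread between these libraries, which may be technical.

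Innate lymphoid cells are sorted into groups by the factor that directs them and the cytokines they release. ILC1s and NK cells use T-bet (Tbx21) and Eomes, respond to IL-12 and make IFN-γ. ILC3s respond to IL-23 and make IL-17 and IL-22, whereas ILC2s use GATA3 and make IL-5 and IL-13. ILC2s exposed to IL-12 are known to gain T-bet and IFN-γ, and some ILC2s can make IL-17, which is termed plasticity. Orai channels let calcium into the cell, and calcium activates NFAT, a factor that takes part in the induction of many of these cytokine genes.

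Of the 8 genes with a row, Il22 had 476 to 725 counts in each library, Il17f had 5 to 33, and the other 6 had 0 to 7. The latter 6 genes, Tbx21, Eomes, Ifng, Ncr1, Il12rb2 and Il23r, did not pass the filter on low values, set at 1 for the mean and 10 for the sum of the normalized counts. Il22 and Il17f were tested, and 0 of the 2 differed between 5D and vehicle at a p-value under 0.05 after Benjamini-Hochberg adjustment over all genes (edgeR, quasi-likelihood). Of the 17650 genes tested, 0.0963% did so, 0.0283% being higher and 0.068% lower with 5D. Without adjustment the count at this threshold was also 0, against 7.34% of all genes tested. Libraries of the groups overlapped for both tested genes, while 37.6% of the genes tested had groups that did not overlap, 18.7% with 5D above and 18.8% with 5D below vehicle. With limma-voom 0 of the 2 passed before or after adjustment, DESeq2's Wald test gave neither an adjusted p-value and had 0 of the 2 under 0.05 unadjusted, and 0 of 8 were called when no filter was applied.

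The libraries held 20096555 to 28697265 counts, so that a single count was worth 0.035 to 0.05 normalized CPM. Normalized CPM are CPM relative to the library total after upper-quartile scaling. A gene with 0 counts could thus have been present at up to 0.105 to 0.15 normalized CPM, the worth of 3 counts, a limit that covers counting error only. Markers of the labelled cell type were expressed, at levels that spread widely. Gata3, the lineage factor of ILC2s, ranked 185 of 21976 genes in normalized CPM per kilobase of exon, and Il5 ranked 4. Thy1, the lowest of 17 ILC2 identity genes, ranked 7789. Lyz2, the most abundant myeloid marker, had 4 to 35 counts. Of the markers of other lineages, Cd4, Ms4a2 and Scgb1a1 were at 0 in all libraries, and Cd5, whose product was in the sort gate, had 0 to 4 counts. Trbc2, a T cell receptor constant gene, had 168 ± 6.08 and 175 ± 3.45 normalized CPM (SD, n = 2 each), whereas Trac had 0 to 8 counts per library. Of the other T cell genes, Trbc1 had 1445 to 1987 counts, Cd3g 445 to 702 and Cd3e 63 to 112. Itgam had 0 to 14 counts, Itgax 7 to 20 and Fcer1a 11 to 61. Epcam at 510 to 792 counts, Cd79b at 336 to 433 and Cpa3 at 25 to 81 led the epithelial, B cell and mast cell lists. Of 9 NK cell markers 4 had a row. Their sum was 50.2 and 46 normalized CPM with vehicle and 70.6 and 53.9 with 5D, nearly all of it Gzma.

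**Figure D1:**
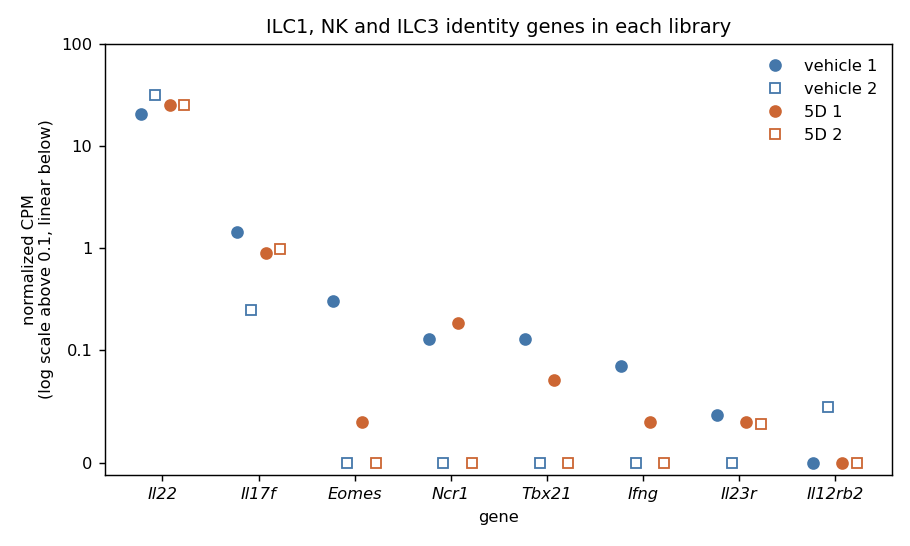
Normalized CPM (y axis, log scale above 0.1 and linear below) of the 8 genes with a row (x axis) in each of the 4 libraries, filled circles for replicate 1 and open squares for replicate 2. Il22 lies between 20.5 and 31.5 in every library, Il17f between 0.25 and 1.42, and the other genes at or below 0.301.

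Il22 encodes IL-22, the ILC3 cytokine that acts on epithelial cells. The gene (ENSMUSG00000074695.3) lies on the plus strand of chromosome 10 of mm10 from 118204942 to 118210047. The vehicle libraries held 476 and 630 counts of Il22 and the 5D libraries 678 and 725, after rounding. This came to 20.5 and 31.5 normalized CPM for the vehicle libraries and to 25.0 and 25.4 for the 5D libraries. Both 5D libraries lay between the vehicle libraries. Vehicle averaged 26.0 ± 7.77 and 5D averaged 25.2 ± 0.264 (SD, n = 2 each). The fold change on the log2 scale was -0.041 (SE 0.17, 95% interval -0.41 to 0.33, adjusted p = 0.985 by edgeR). Because the vehicle libraries stood apart from each other, the value turned on which of them was used. It was -0.33 without vehicle replicate 1 (unadjusted p = 0.0278, adjusted p = 0.361 by edgeR) and 0.29 without vehicle replicate 2 (adjusted p = 0.707 by edgeR). The summed myeloid markers also stood apart in vehicle replicate 2. The 7 genes of that list, of which none was at 0 in all libraries, summed to 3.95 normalized CPM in vehicle replicate 2 and 0.990 in vehicle replicate 1, and to 1.18 and 0.874 with 5D. Of the 3.95, Lyz2 made up 1.75, whereas Ly6g was at 0 in that library and had 6 to 8 counts in the others. The summed B cell markers were also highest in vehicle replicate 2, at 20.8 normalized CPM against 16 in vehicle replicate 1. With 5D they came to 15.4 and 17.4. The summed NK cell, epithelial, and mast cell and basophil markers were lowest in vehicle replicate 2. The part of these lists in the Il22 value was not tested.

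Among the genes of the panel, Il22 was the one whose level lay within the range of 17 ILC2 identity genes. Per kilobase of exon that range ran from 3.61 normalized CPM for Thy1 to 2990 for Il5, and most of the 17 lay above Il22. Per kilobase of exon it had a mean of 23.0 normalized CPM over the 4 libraries, above 88.0% of the 21976 genes that could be ranked. Neighbouring levels on this scale were 23.4 for Il7r, the IL-7 receptor chain by which ILC2s are sorted, and 22.8 for Bcl11b, an ILC2 lineage factor. The level of Il22 was 8.35% of that of Gata3 (276). As a mean over all libraries it lay below Il13 (142) and above Il9 (12), both cytokines of ILC2s. In vehicle replicate 1, however, Il9 (21.8) was above Il22 (18.5), and in the other libraries it was below. In their profile over the 4 libraries, Fancm and Serac1 were nearest to Il22 among 11181 genes with a mean of at least 50 counts, with distances of 0.048 and 0.0583 between centered log2 values. This likeness rests on 4 libraries.

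Il22 has a near-identical neighbour in the reference genome, so its counts are uncertain. Iltifb (ENSMUSG00000090461.2, minus strand of chromosome 10 from 118289629 to 118295038) is separated from Il22 by 79581 bases. Their transcripts of 1110 and 1111 bases were 97.4% identical. They differed by 29 substitutions, 9 of them in the coding sequence, with 215 bases as the longest identical run. The coding stretch of exon 2 of Il22 at chr10:118205570-118205612 (mm10, plus strand) is shown with the aligned stretch of Iltifb, since reads over such stretches are what can tell the genes apart. Capitals mark the differing bases, which are C237T, T262C and C266T when positions are counted from 1 at the first base of the Il22 transcript.
Il22: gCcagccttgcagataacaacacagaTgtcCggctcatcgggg
Iltifb: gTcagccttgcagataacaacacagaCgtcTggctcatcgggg
Of all windows of 75 bases in the Il22 transcript, 29.9% occurred unchanged in that of Iltifb, and of windows of 50 bases 41.0% did. The read length is not given in the sources used here.

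The deposited counts were fractional for each gene, for example 476.425 for Il22 and 109.574 for Iltifb in vehicle replicate 1, but their sums were within 0.004 of whole numbers. They came to 586 and 756 in vehicle libraries, and to 830 and 885 in 5D libraries. Iltifb received 18.7% (95% exact Clopper-Pearson interval 15.7 to 22.2) and 16.6% (14.1 to 19.5) of them with vehicle, and 18.3% (15.7 to 21.1) and 18.1% (15.6 to 20.8) with 5D. These intervals overlapped for all 4 libraries. They cover counting error only and take each count as a read of known origin. They may be too narrow, since reads in shared stretches cannot tell the genes apart. The reference genome is that of C57BL/6J mice, whereas these mice were BALB/c. Whether BALB/c mice carry Iltifb as a separate gene was not tested, nor was which gene the shared reads came from. If they do not, the counts given to Iltifb would belong to Il22. With the counts of both genes joined, which was chosen after seeing the data, the level was 25.2 and 37.8 normalized CPM with vehicle and 30.6 and 31 with 5D. The fold change was then -0.029 on the log2 scale (SE 0.16, adjusted p = 0.994 by edgeR), and the 5D libraries again lay between the vehicle libraries.

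**Figure D2:**
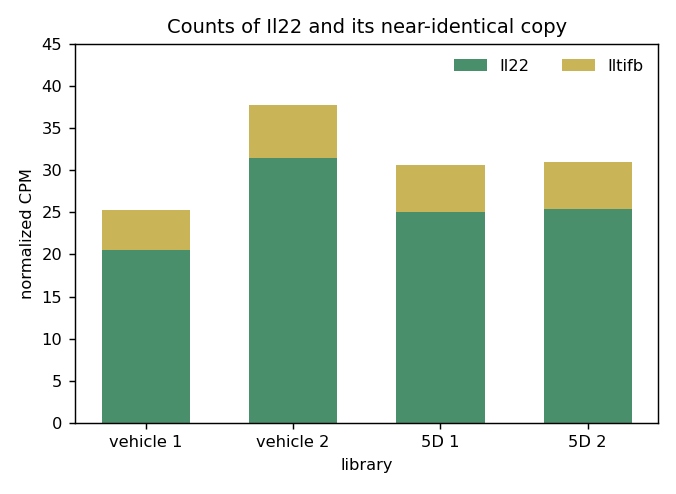
Stacked bars of normalized CPM (y axis, from 0) of Il22 and Iltifb in each library (x axis). The joined height is 25.2 and 37.8 with vehicle and 30.6 and 31 with 5D, and both 5D libraries stand between the vehicle libraries.

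Il17f encodes IL-17F, a cytokine of ILC3s and Th17 cells that recruits neutrophils. The gene (ENSMUSG00000041872.9) lies on the minus strand of chromosome 1 from 20777146 to 20790617. Vehicle libraries held 33 and 5 counts of it, and 5D libraries 24 and 28. Vehicle replicate 2 was low and the other libraries were close to each other, so the groups overlapped. Vehicle averaged 0.835 ± 0.828 and 5D 0.932 ± 0.0671 normalized CPM (SD, n = 2 each). On the log2 scale 5D and vehicle differed by 0.14 (SE 0.67, 95% interval -1.34 to 1.61, adjusted p = 0.991 by edgeR). This value became -0.61 when vehicle replicate 2 was left out, and 1.88 when vehicle replicate 1 was (unadjusted p = 0.0421, adjusted p = 0.426 by edgeR). With this spread, the interval of Il17f spans changes of more than 2-fold in either direction. Per kilobase of exon its mean level of 0.437 was 0.158% of that of Gata3 and above 43.1% of all genes ranked. No other gene shared with Il17f a stretch of at least 150 bases at 95% identity. In the library where Il17f was lowest, the summed myeloid and B cell markers were highest. The summed NK cell, epithelial, and mast cell and basophil markers were lowest there. The mast cell and basophil list of 4 genes, of which Ms4a2 was at 0 throughout, summed to 5.55 and 2.25 normalized CPM with vehicle and to 4.79 and 4.97 with 5D. Its leading gene Cpa3 had 79 and 25 counts with vehicle and 81 and 74 with 5D. The part of these lists in the Il17f value was not tested.

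The sequences before the starts of Il22 and Il17f, the tested genes, are given because NFAT acts downstream of the channels that 5D blocks. Each shows the 250 bases upstream of the RefSeq start on GRCm38.p6, read 5′ to 3′ on the strand of the gene, at chr10:118204714-118204963 (plus) and chr1:20784271-20784520 (minus). The last 22 bases of the first and 26 bases of the second window lie in a GENCODE M21 exon. The Il17f window lies wholly inside the GENCODE M21 bounds of the gene given above. It therefore precedes the RefSeq start and not the outermost GENCODE start. Capitals mark matches to the motifs searched, TTTCC being the reverse complement of GGAAA.
Il22: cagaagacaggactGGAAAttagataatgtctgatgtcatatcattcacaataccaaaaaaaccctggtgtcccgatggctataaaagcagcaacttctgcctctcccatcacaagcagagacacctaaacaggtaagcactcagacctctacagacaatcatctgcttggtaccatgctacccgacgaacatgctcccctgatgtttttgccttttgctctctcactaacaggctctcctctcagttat
Il17f: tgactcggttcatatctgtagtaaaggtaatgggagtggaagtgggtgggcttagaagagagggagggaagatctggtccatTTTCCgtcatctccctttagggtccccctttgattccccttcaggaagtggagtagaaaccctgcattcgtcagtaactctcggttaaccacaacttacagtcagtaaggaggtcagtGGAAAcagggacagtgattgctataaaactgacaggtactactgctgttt
Motifs were searched on both strands, and matches could overlap. The core that NFAT binds, GGAAA, was found 1 time before Il22, starting 236 bases before the start, and 2 times before Il17f, at 168 and 50 bases. It occurred in the same window of 55.6% of 32817 promoters, and of the 9 genes of the panel, Il17a included, 5 held it. The T-bet motif TCACACCT occurred before 0 of the 9 genes and in 1.12% of promoters. The core GCGTG, bound by the aryl hydrocarbon receptor, was found for Il12rb2 (28.1% of promoters), and the STAT motif TTCNNNGAA for Ifng and Il12rb2 (7.01%). These matches describe letters in the windows and show neither binding nor its absence.

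The ILC1 and NK cell genes of the panel were at trace levels with and without 5D. Tbx21 (chromosome 11 from 97098071 to 97115331), which encodes the ILC1 factor T-bet, had 3 and 0 counts with vehicle and 2 and 0 with 5D. Eomes (chromosome 9 from 118478212 to 118486132), the factor of NK cells, had 7 and 0 with vehicle and 1 and 0 with 5D. Both factors were thus found in replicate 1 of each group and in replicate 2 of neither. Ifng (chromosome 10 from 118441046 to 118445892), the effector cytokine of ILC1s, had 2 and 0 counts with vehicle and 1 and 0 with 5D. Ncr1 (chromosome 7 from 4337724 to 4345164), which encodes the activating receptor NKp46, had 3 and 0 counts with vehicle and 5 and 0 with 5D. Summed over these 4 genes, the replicate 1 libraries held 15 counts with vehicle and 9.05 with 5D, and the replicate 2 libraries held 0 in both groups. With 0 to 7 counts per library, no fold change is given for these genes, and a difference was not detectable at this depth. In bulk RNA, fewer cells of a type and less RNA per cell cannot be told apart. An exon of Eomes overlaps Gm33460 on the other strand and Ifng shares sequence with Gm49751, so that some of these counts may belong to those genes.

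The receptors showed a split between private and shared subunits. Il12rb2 (chromosome 6 from 67291318 to 67376188) encodes the signaling chain of the IL-12 receptor, and Il23r (chromosome 6 from 67422932 to 67491855) encodes that of the IL-23 receptor. The genes lie 46743 bases apart. Il12rb2 had 0 and 1 counts with vehicle and 0 and 0 with 5D, and exons of Serbp1 on the other strand overlap it and share a near-identical stretch. Il23r had 1 and 0 counts with vehicle and 1 and 1 with 5D. By contrast Il12rb1, the chain that both receptors share, had 6824 and 5849 counts with vehicle and 8237 and 8697 with 5D. Per kilobase of exon the level of Il12rb1 was 72.7 normalized CPM, above 95.9% of all genes, while Il23r had 0.0115 and Il12rb2 0.00329. Vehicle averaged 293 ± 1.08 and 5D 304 ± 0.467 normalized CPM of Il12rb1 (SD, n = 2 each), and the difference on the log2 scale was 0.052 (SE 0.046, adjusted p = 0.875 by edgeR).

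Ordered by level per kilobase of exon, the panel ran from Il22 (23.0 normalized CPM) over Il17f (0.437), Ncr1 (0.0509), Ifng (0.0237), Tbx21 (0.0204), Eomes (0.0204) and Il23r (0.0115) to Il12rb2 (0.00329). The libraries of Il22 and those of Il17f did not overlap on this scale. The lowest library of Il17f, at 0.124, lay just above the highest of Ncr1, at 0.120. From Ncr1 down, neighbouring genes overlapped over the 4 libraries, each with at least 1 library at 0.

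**Figure D3:**
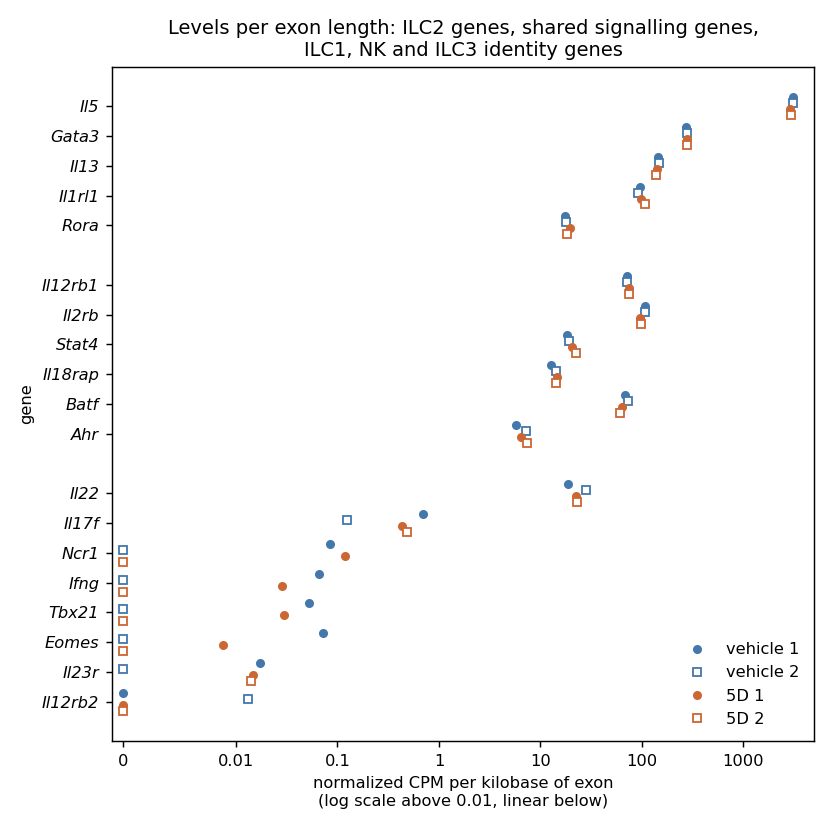
Normalized CPM per kilobase of exon (x axis, log scale above 0.01 and linear below) in each library for genes of ILC2s (top), shared receptors and signaling genes (middle) and the ILC1, NK and ILC3 genes (bottom). Il22 stands among the expressed genes at 23.0, and the private receptor chains Il23r and Il12rb2 stand at 0.0115 and 0.00329 while the shared chain Il12rb1 stands at 72.7.

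Signaling genes of these receptors were expressed with and without 5D. A list of 16 receptors and signaling genes of the IL-12, IL-18 and IFN-γ pathways was compared. All 16 were tested and 0 passed an adjusted p-value under 0.05 over all genes in edgeR, where 0.0963% of all genes tested did. At an unadjusted p-value under 0.05, 1 was higher (3.5% of all genes) and 1 lower (3.84% of all genes). The median log2 fold change was 0.038 and the range -0.16 to 0.22, beside a median of -0.0016 over all genes tested. Socs1, a feedback inhibitor of cytokine signaling, was the most abundant, at 645 ± 20.9 and 657 ± 8.89 normalized CPM (SD, n = 2 each). Jak1, the kinase of many cytokine receptors, had 539 ± 32.1 and 557 ± 6.86. Il2rb, a receptor chain for IL-2 and IL-15, was at 459 and 464 normalized CPM in vehicle libraries and at 412 and 417 in 5D libraries. Its log2 fold change was -0.16 (SE 0.042, adjusted p = 0.443 by edgeR), with both 5D libraries below both vehicle libraries. Stat4, the factor that IL-12 activates, had 70.9 and 73.2 with vehicle and 79.1 and 87.3 with 5D. Its log2 fold change of 0.21 (SE 0.077) had an adjusted p-value of 0.568 by edgeR, and both 5D libraries were above the vehicle libraries. Without 5D replicate 2 the log2 fold change of Stat4 was 0.13.

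The wider ILC3 list held genes of which some, such as Batf, Stat3, Ahr and Csf2, are also used by ILC2s. The study names GM-CSF, the product of Csf2, among the ILC2 cytokines whose production fell with Orai inhibition. Production of a cytokine and its RNA are unlike measures. All 18 genes described were tested, with 0 past an adjusted p-value under 0.05 in edgeR, against 0.0963% of all genes tested. At an unadjusted p-value under 0.05, 2 were higher and 1 was lower, against 3.5% and 3.84% of all genes tested. Their median log2 fold change was -0.034. Il17re, a receptor chain for IL-17C, had 3 and 10 counts with vehicle and 38 and 30 with 5D. Its log2 fold change was 1.98 (SE 0.67, unadjusted p = 0.0128, adjusted p = 0.552 by edgeR). The log2 fold change was 1.28 without vehicle replicate 1 (unadjusted p = 0.0811 by edgeR) and 3.20 without vehicle replicate 2 (adjusted p = 0.0924). It did not pass the test over all genes, although both 5D libraries were above the vehicle libraries. The higher of the abundant genes was Csf2, the gene of GM-CSF, at 347 and 346 normalized CPM with vehicle and 379 and 396 with 5D (log2 fold change 0.16, SE 0.046, adjusted p = 0.487 by edgeR). Batf, a factor of the AP-1 family, had 95.8 and 102 with vehicle and 88.9 and 85.0 with 5D (log2 fold change -0.18, SE 0.069, adjusted p = 0.583). Stat3, through which IL-23 signals, and Gpr183, an oxysterol receptor, had log2 fold changes of -0.10 and 0.062 with adjusted p-values of 0.682 and 0.928 by edgeR.

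Of 26 other ILC1 and NK cell genes, 22 had a row and 17 were tested. In edgeR 0 passed an adjusted p-value under 0.05, against 0.0963% of all genes tested. At an unadjusted p-value under 0.05, 3 were higher (3.5% of all genes) and 2 lower (3.84% of all genes), with a median log2 fold change of 0.07 over the list. Cxcr6, a homing receptor, averaged 1505 ± 60.8 in vehicle and 1581 ± 51.8 normalized CPM in 5D libraries (SD, n = 2 each). Gzmb and Gzma encode granzymes, proteases of cytotoxic granules. Gzmb was at 50.5 and 108 normalized CPM in vehicle libraries and at 80.5 and 74.1 in 5D libraries, so that its 5D libraries also lay between the vehicle libraries. Its log2 fold change of -0.031 (adjusted p = 0.997 by edgeR) became -0.49 without vehicle replicate 1 (adjusted p = 0.000137) and 0.61 without vehicle replicate 2 (adjusted p = 1.84e-05). Gzma had 48.4 and 44.7 with vehicle and 70.3 and 52.4 with 5D, a log2 fold change of 0.40 (SE 0.12, adjusted p = 0.531 by edgeR, and 0.02 without vehicle replicate 1). The log2 fold change of Gzma was 0.17 without 5D replicate 1 (adjusted p = 0.879 by edgeR). Runx3, a partner factor of T-bet, had 59.0 ± 0.314 and 57.2 ± 2.38 (SD, n = 2 each). The others past the unadjusted threshold had few counts. Klrk1 had 0 and 0 with vehicle and 6 and 6 with 5D, Klrc1 had 10 in vehicle replicate 1 and 0 elsewhere, and Tyrobp had 4 and 10 with vehicle and 2 and 0 with 5D. Ccl4, a chemokine, had 0 and 10 with vehicle and 82 and 18 with 5D (adjusted p = 0.555 by edgeR). Its adjusted p was 7.78e-06 without vehicle replicate 2, where the remaining vehicle library was at 0, and 0.921 without 5D replicate 1, which held 82 of its counts. Cxcr3, the chemokine receptor of type 1 lymphocytes, and Gzmc were at 0 in all libraries.

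**Figure D4:**
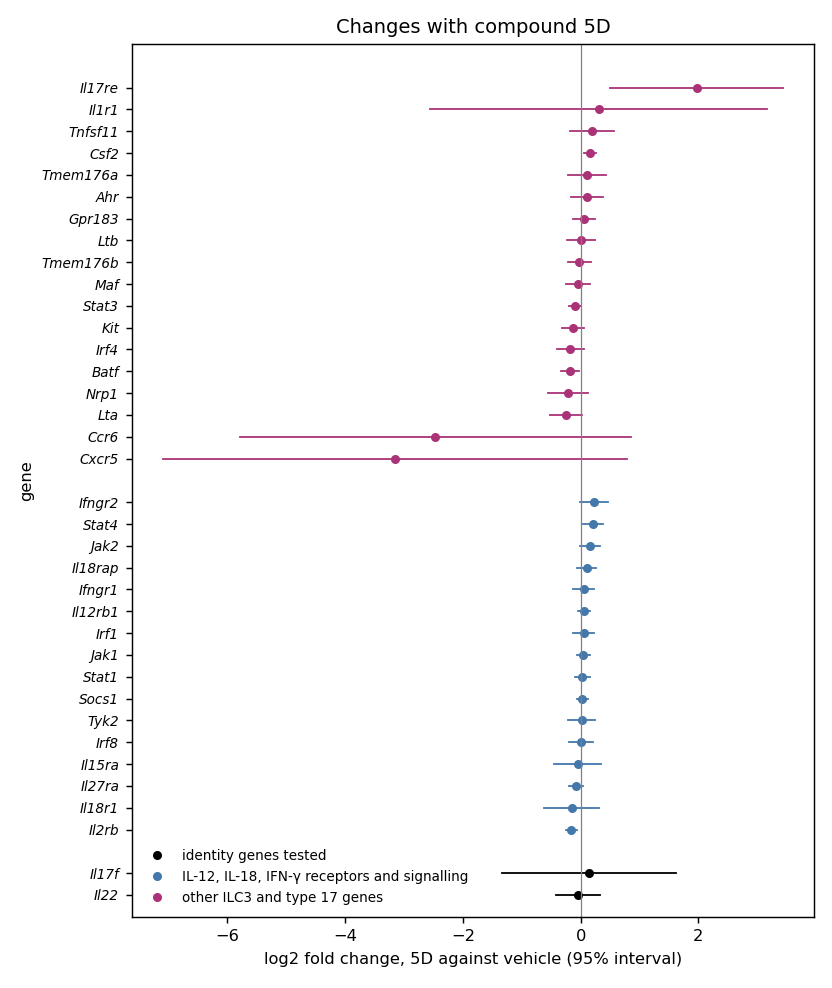
Log2 fold change of 5D against vehicle (x axis) with 95% intervals for Il22 and Il17f, the IL-12, IL-18 and IFN-γ receptor and signaling genes, and the other ILC3 and type 17 genes (y axis). Il17re at 1.98 lies farthest to the right with an interval above 0, and it did not pass the threshold after adjustment over all genes.

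For comparison, all 17 genes of an ILC2 identity list were tested, with 1 lower (0.068% of all genes tested) and 0 higher (0.0283%) at an adjusted p-value under 0.05 in edgeR. The gene was Il9, a cytokine of ILC2s, at 11.7 and 7.85 normalized CPM with vehicle and 3.28 and 3.01 with 5D (adjusted p = 0.0314 by edgeR, and 0.0517 and 0.109 when 5D replicate 1 or 2 was left out). Without adjustment, 5 genes of that list were lower (3.84% of all genes) and 1 was higher (3.5% of all genes). The lower genes beside Il9 were Il2ra, Klrg1, Thy1 and Il5, and the higher one was Il1rl1, the gene of the IL-33 receptor ST2, with log2 fold changes of -0.23, -0.15, -0.39, -0.084 and 0.12. For Il2ra, the IL-2 receptor chain, the adjusted p by edgeR was 0.0878. Gata3 and Id2, an ILC factor, were at 0.0079 and -0.082 on the same scale.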

How the data were processed

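RNA libraries were made by the authors with a low-input cDNA kit, and reads were aligned with STAR 2.6.1 to mm10 and quantified on GENCODE M21 in Partek. The values the authors deposited are estimated counts for each gene, not normalized. Of the values above 0, 44.7% to 46.8% were exactly whole as written in the table, with no tolerance, and all were rounded to whole counts for the tests. A gene without a row was not analysed, and 1 gene of the ILC3 list is not reported here.

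Counts were scaled by the upper quartile, filtered at a mean normalized count of 1 and a sum of 10, and tested in R 4.3.3 with edgeR 4.0.16 (two-sided quasi-likelihood test of the group), and p-values were adjusted over 17650 genes by Benjamini-Hochberg. The study used Gene Set Analysis in Partek, which was not run. SE was obtained as the size of the log2 fold change divided by the root of F. DESeq2 1.42.0, limma 3.58.1, other normalizations and filters, thinning and leaving out each library were alternatives. Exon lengths and positions are from GENCODE M21, promoters from RefSeq, and near-identical stretches from BLAST 2.17.0. Of 22554 genes, 21976 matched by name and position. The panel and lists were chosen with earlier results of these data known. Named were all genes of the panel, the 4 most abundant of each list, those at an unadjusted p-value under 0.05, the most abundant marker of each list and markers of the sort gate. Genes outside this rule were named after their values were seen. Replicate libraries differed beyond counting noise. An exact permutation of 2 against 2 libraries cannot reach the threshold.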

Additional observations from a re-analysis of the deposited data

How the results depend on the processing

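The count of panel genes past an adjusted p-value under 0.05 was 0 under each alternative run, apart from DESeq2, which gave Il22 and Il17f no adjusted p-value, and so were those of the IL-12 and of the ILC3 list. At an unadjusted p-value the panel count was 0 to 2 when single libraries were left out, with 2 reached without vehicle replicate 1. When single libraries were left out, the log2 fold change ranged from 0.17 to 0.59 for Gzma, from 1.36 to 8.59 for Ccl4 and from -1.89 to -1.32 for Il9. At an adjusted p-value under 0.05, 0 other ILC1 and NK cell genes passed under the alternatives that kept all 4 libraries. Of the ILC2 identity genes, 1 or 2 passed under these alternatives. The count of ILC2 identity genes was 2 with the replicate block, without a filter and with limma-voom, each of which added Il2ra to Il9. DESeq2 called Il2ra and gave none for Il9. The sign of Il22 turned to 0.0075 with limma-voom and to 0.29 without vehicle replicate 2, and that of Il17f to -0.61 without vehicle replicate 2. Over the libraries left out, Il22 ranged from -0.33 to 0.29, Il17f from -0.61 to 1.88, Gzmb from -0.49 to 0.61, Socs1 from -0.0099 to 0.057, Jak1 from -0.014 to 0.11, Gpr183 from -0.041 to 0.17 and Gata3 from -0.0028 to 0.013. Gzmb turned to 0.094 with limma-voom and 0.047 with the replicate block. With the replicate block, Il22 had -0.019 (adjusted p = 0.998) and Il17f 0.42 (adjusted p = 0.956), and the numbers were not taken to pair the libraries, whose deviations correlated at 0.00419. The block moved the genes called over the whole table from 5 higher and 12 lower to 9 and 32, DESeq2 to 16 and 42, limma-voom to 9 and 23, and no filter to 11 and 35. Without vehicle replicate 1 they were 73 and 107, and without vehicle replicate 2 they were 32 and 47. A group left with 1 library was assumed to vary like the other. Mean levels of Il22 and Il17f moved by less than their SD under other scalings. Depth limits Tbx21, Eomes, Ifng, Ncr1, Il12rb2 and Il23r to the statement that a difference was not detectable.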
